A study of Mus musculus with 6 samples.

Results

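Npy, Cadm1 and Kcnn4 are 3 of the 10551 genes measured in bone marrow-derived macrophages of C57BL/6J mice, and their transcripts lay lower in every Dhps knockout library than in every control library. They were picked by symbol from among the named genes with the smallest p-values on the lower side of this comparison, so the difference between the groups is what chose them. It is described below and supports nothing by itself. The control group, labelled only as control, and the knockout group, labelled Dhps_delta_Myel and described as macrophage specific, had 3 libraries each. Cells of this kind are grown in culture from marrow progenitors. The sources used here do not give the alleles of the control cells, the driver of the deletion, the age and sex of the animals or any stimulus. Since the labels do not tell whether each library had an animal or culture of its own, p-values measure only the spread between these libraries, which may be technical.

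Npy encodes neuropeptide Y, a secreted peptide best known as a transmitter of sympathetic and brain neurons, which signals through a family of G protein-coupled receptors. Myeloid cells and, in rodents, megakaryocytes and platelets are also known to make it. Cadm1 encodes cell adhesion molecule 1, an immunoglobulin-type surface protein that binds itself, other members of its family and CRTAM, a receptor of activated lymphocytes. It is used as a marker of cross-presenting dendritic cells and mediates the attachment of mast cells. Kcnn4 encodes KCa3.1, a potassium channel opened by calcium through bound calmodulin. Its opening keeps the membrane negative and so favours calcium entry in macrophages, lymphocytes and mast cells. Dhps encodes deoxyhypusine synthase, which carries out the first step in making hypusine, a modified lysine of the translation factor eIF5A.

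In the deposited table, Npy has 4 exons with 545 bases on the plus strand of chromosome 6 (mm10, 49822729 to 49829505). Cadm1 has 11 exons with 4387 bases on the plus strand of chromosome 9 (47530352 to 47853385), of which the last exon alone holds 3114. Kcnn4 has 9 exons with 2037 bases on the plus strand of chromosome 7 (24370263 to 24385212). All 3 are protein-coding, and 0 other genes of the GENCODE annotation share an exonic base with any of them on either strand. No transcript of another gene matched theirs over 100 or more bases at 90% identity or more.

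The sequences upstream of Npy and Kcnn4 are shown because they are the stretches next to the start sites of a pair of transcripts that lay lower in the same libraries. They come from RefSeq (GRCm38.p6, the assembly of mm10), which gave a match for 2 of the 3 genes. Each line holds the 250 bases before the start annotated by RefSeq, 5′ to 3′ on the plus strand, with matched motifs in capitals. Positions are counted from that start. For Npy the window ends at 49822709, short of the first base of the gene in the deposited table, 49822729. The Kcnn4 window ends right before the first base in that table, 24370263.
Npy, chr6:49822460-49822709: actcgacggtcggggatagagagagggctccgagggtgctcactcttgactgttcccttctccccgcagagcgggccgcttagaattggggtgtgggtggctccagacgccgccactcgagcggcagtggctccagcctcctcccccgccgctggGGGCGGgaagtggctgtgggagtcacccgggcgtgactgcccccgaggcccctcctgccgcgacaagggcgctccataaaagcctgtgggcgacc
Kcnn4, chr7:24370013-24370262: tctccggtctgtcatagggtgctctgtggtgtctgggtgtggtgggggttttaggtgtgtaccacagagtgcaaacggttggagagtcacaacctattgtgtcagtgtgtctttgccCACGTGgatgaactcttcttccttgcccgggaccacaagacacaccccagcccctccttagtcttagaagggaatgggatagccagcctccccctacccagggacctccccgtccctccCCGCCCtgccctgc
On both strands, 5 motifs were searched: the TATA box (TATAAA), the GC box bound by SP1 (GGGCGG), a core of the macrophage factor PU.1 (GAGGAA), the AP-1 site (TGACTCA) and an E-box (CACGTG). In the Npy sequence the GC box occurs once, with its first base at -95 from the start. The Kcnn4 sequence has a GC box at -14 on the minus strand and an E-box at -133. Of 32851 mouse promoter windows of the same length, 32.7% hold the GC box and 6.02% the E-box. The remaining motifs are in neither window in these exact letters, and other spellings of them were not searched. Of all windows, 12.4%, 23.2% and 4.46% hold the TATA box, the PU.1 core and the AP-1 site as spelled here. The pair differed in base composition, with 69.2% G and C and 21 CpG dinucleotides for Npy and 58.8% and 6 for Kcnn4, where the median window has 52.4% and 6. These matches are descriptions of letters and not of bound factors.

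The 6 libraries held between 11648710 and 16224818 counts over the genes of the table, and values below are normalized CPM, counts per 1000000 counts of the library after scaling by the trimmed mean of M values. Dhps itself, the targeted gene, lay at 24.1, 20.9 and 23.4 CPM in control libraries 1 to 3 and at 13.2, 13.6 and 18.3 CPM in the knockouts 1 to 3, so that its mean was 34.0% lower. Knockout library 3 held the highest Dhps level of its group. The sources used here do not name the deleted exons, so reads of the row can include transcripts of a deleted allele.

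For Npy, the control libraries held 679, 925 and 555 reads, or 48.5, 59.5 and 48.3 CPM. Its level in the knockout libraries was 29.4, 35.4 and 39.5 CPM, from 427, 457 and 644 reads. Control library 2 stood above the other controls, knockout library 1 was the lowest of the 6, and the groups did not overlap. The closest pair, control library 3 and knockout library 3, lay 8.78 CPM apart, which is 18.2% of the lower control value. The means were 52.1 ± 6.41 and 34.8 ± 5.09 CPM (SD, n = 3 each), a level 33.3% lower in the knockout. The log2 fold change was -0.58 (SE 0.12, 95% interval -0.84 to -0.33). In such bulk samples, fewer cells of a type and less RNA per cell cannot be told apart.

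For Cadm1, the control libraries lay at 41.5, 49.2 and 48.6 CPM, from 581, 766 and 559 reads. Knockout libraries 1 and 3 lay at 26.3 and 27.3 CPM, while knockout library 2 reached 39.8 CPM, from 383, 445 and 514 reads in that order. Knockout library 2 was thus closer to the controls than to its own group, and only 1.66 CPM separated it from control library 1. The means were 46.4 ± 4.31 and 31.1 ± 7.53 CPM (SD, n = 3 each), so that the knockout spread, at 24.2% of its mean, was the widest of the 3 genes. The mean level was 32.9% lower, and the log2 fold change was -0.58 (SE 0.14, 95% interval -0.87 to -0.29).

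Kcnn4 was the most deeply counted of the 3, with 1958 to 3117 reads in every library. It lay at 221, 200.4 and 187 CPM in control libraries 1 to 3 and at 135, 164 and 161 CPM in the knockout libraries. Knockout library 1 was again the lowest, and 22.8 CPM (12.2%) separated control library 3 from knockout library 2. The mean of 203 ± 17.2 CPM in the controls and of 153 ± 16.4 CPM in the knockouts (SD, n = 3 each) corresponds to a level 24.4% lower. The log2 fold change was -0.40 (SE 0.10, 95% interval -0.61 to -0.19). The 3 intervals overlap widely, and whether the smaller value of Kcnn4 differs from that of Npy or Cadm1 was not tested.

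**Figure D1:**
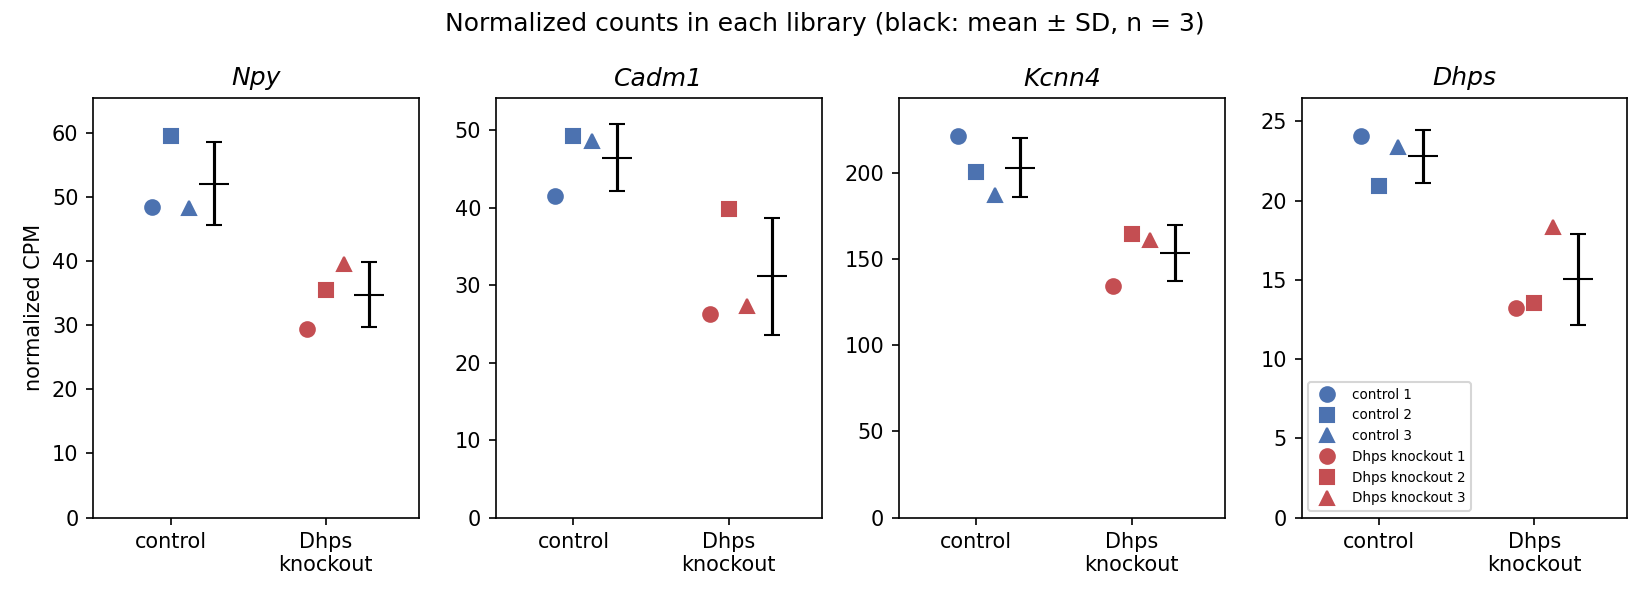
Normalized CPM of Npy, Cadm1, Kcnn4 and the targeted gene Dhps in each library (vertical axes from 0, 1 panel a gene), with circles, squares and triangles for libraries 1, 2 and 3 and black bars for the mean ± SD (n = 3). The groups do not overlap in any panel, and the narrowest gap is that of Cadm1, between knockout library 2 at 39.8 CPM and control library 1 at 41.5 CPM.

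None of the 3 genes passed the threshold of an adjusted p under 0.05 over the 10551 genes with edgeR's quasi-likelihood test, where 11 genes (0.104%) did, 10 higher (0.0948%) and 1 lower (0.00948%). The adjusted p that belonged to their choice was 0.114 for Npy, 0.214 for Cadm1 and 0.250 for Kcnn4. Groups without overlap, with every knockout library lower, were found for these 3 genes and for 575 of all genes (5.45%), and nothing is read from this since it belongs to the contrast that chose them. In the order of p among genes with lower knockout values, Npy came 2nd after the macrophage lysozyme gene Lyz2, Cadm1 came 5th and Kcnn4 7th. Between them were Dhps, 4th, and Idh2, the mitochondrial NADP-dependent isocitrate dehydrogenase, 6th (log2 fold change -0.45), with a gene model without a name 3rd. Just outside came Col4a5, a chain of basement membrane collagen (-1.27, adjusted p = 0.250), then Snrpd2, a core splicing protein (-0.52, adjusted p = 0.290), and S100a4, a calcium-binding protein of motile cells (-0.36, adjusted p = 0.298). The unadjusted p of Kcnn4, 8.3e-04, and of Col4a5, 8.5e-04, were nearly equal, so the order at this place carries little.

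The groups did not overlap for any of the 3 genes, so leaving out 1 library could hardly change a sign. The 3 log2 fold changes stayed below 0 each time, which therefore adds nothing. For Npy they ranged from -0.68 without knockout library 3 to -0.47 without knockout library 1, with adjusted p between 0.051 and 0.663. For Cadm1 they ranged from -0.79 without knockout library 2 to -0.47 without knockout library 1, with adjusted p between 0.018 and 0.815. For Kcnn4 they ranged from -0.46 without control library 3 to -0.31 without knockout library 1, with adjusted p between 0.270 and 0.733. In all 3 genes the value nearest to 0 was the one without knockout library 1. The highest adjusted p was the one without control library 2, but an adjusted p depends on all genes of a fit. The largest unadjusted p of the quasi-likelihood test came without control library 2 for Npy only (0.0022). For Cadm1 it came without knockout library 3 (0.0057) and for Kcnn4 without knockout library 1 (0.0054). Of the 6 fits with a library left out, Cadm1 passed the threshold in the one without knockout library 2 (adjusted p = 0.018, where 0.019% of all genes were called lower), and neither of the other genes passed in any of them. Their places in the order of p were less stable than their folds: among lower genes and with a library left out, Npy ranged from 3rd to 10th, Cadm1 from 2nd to 33rd and Kcnn4 from 7th to 57th. With DESeq2, Npy passed (adjusted p = 0.015, where 0.0284% of all genes were called lower), while Cadm1 (0.065) and Kcnn4 (0.060) did not.

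**Figure D2:**
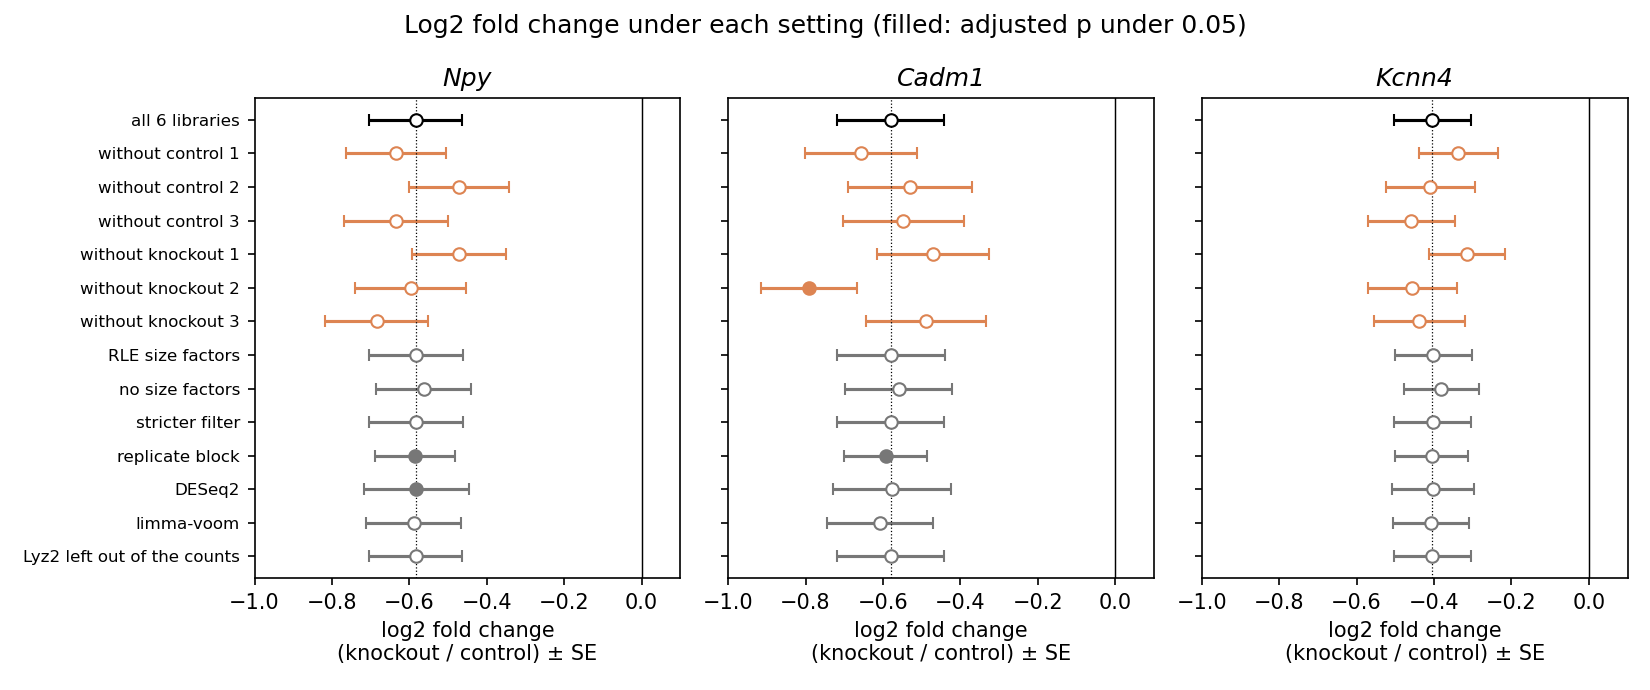
Log2 fold change of knockout over control (horizontal axis, ± SE) for Npy, Cadm1 and Kcnn4 with all 6 libraries (black), with each library left out (orange) and under other processing (grey), where filled points passed an adjusted p of 0.05. Every point is below 0, which groups without overlap made nearly certain. The points run from -0.79 for Cadm1 without knockout library 2 to -0.31 for Kcnn4 without knockout library 1.

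The spread within groups was larger than counting error for all 3 genes. Counting alone would give a coefficient of variation of 3.29% to 4.84% per library for Npy, 3.61% to 5.11% for Cadm1 and 1.79% to 2.26% for Kcnn4. The libraries of a group differed by 12.3% (control) and 14.6% (knockout) for Npy, by 9.28% and 24.2% for Cadm1 and by 8.48% and 10.7% for Kcnn4. Against genes within 0.5 log2 units of the same average level, the pooled standard deviation within groups was 0.19 log2 units for Npy, where the median gene had 0.12, 0.25 for Cadm1 (median 0.12) and 0.14 for Kcnn4 (median 0.11). It was larger than that of 86.0% of the 1583 such genes for Npy, of 94.9% of 1632 for Cadm1 and of 75.3% of 711 for Kcnn4.

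Deviations from the group mean, whose size entered the p-values behind the choice of the genes, are given as a description of each library. In knockout library 1 all 3 lay below the mean of their group, at -0.23 for Npy, -0.21 for Cadm1 and -0.18 for Kcnn4 on the log2 CPM scale, and Dhps did too (-0.17). In knockout library 3, which had the highest Dhps level of the knockouts (0.30), Npy was at 0.19 and Kcnn4 at 0.08, but Cadm1 was at -0.16. Knockout library 2 had Cadm1 at 0.38 with Npy near its mean (0.04). No control library had all 3 genes on the same side of the mean. In control library 2, for example, Npy and Cadm1 were at 0.20 and 0.09 and Kcnn4 at -0.02. The correlation of these deviations over the 6 libraries was 0.52 for Npy with Kcnn4, 0.29 for Npy with Cadm1 and 0.26 for Cadm1 with Kcnn4, as a description over libraries that share their scaling.

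**Figure D3:**
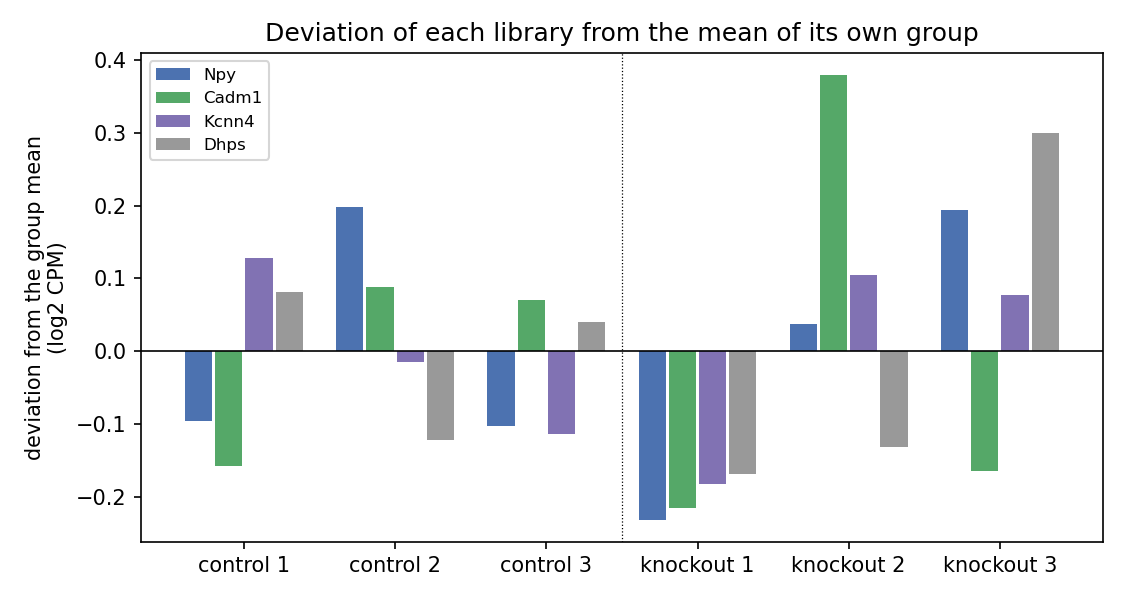
Deviation of each library from the mean of its own group (vertical axis, log2 CPM) for Npy, Cadm1, Kcnn4 and Dhps (bar colours), with control libraries left and knockout libraries right of the dotted line. All 4 genes lie below the group mean in knockout library 1, and the longest bar is that of Cadm1 in knockout library 2 (0.38).

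Levels of different genes were compared per length, as normalized CPM per 1000 exonic bases (RPKM). In control libraries Kcnn4 was at 99.6 ± 8.45 RPKM, Npy at 95.5 ± 11.8 and Cadm1 at 10.6 ± 0.982 (SD, n = 3 each). Kcnn4 and Npy did not differ beyond their spread, since their libraries ranged from 91.9 to 109 and from 88.6 to 109 RPKM, while Cadm1 was far below both. Kcnn4 and Npy were above 93.4% and 93.2% of the genes of the table on this scale, and Cadm1 above 60.3%. In knockout libraries the order of the means was Kcnn4 at 75.3 ± 8.03, Npy at 63.8 ± 9.34 and Cadm1 at 7.10 ± 1.72 RPKM, and the ranges of Kcnn4 (66.1 to 80.7) and Npy (53.9 to 72.4) overlapped.

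Among the 47 measured genes of 8 lists on the peptide, adhesion and channel systems around them, the 3 genes themselves left out, none passed the threshold in edgeR's test in either direction, nor with DESeq2, nor with any library left out. At an unadjusted p under 0.05 there were 4 lower and 1 higher, against 279 lower (2.64%) and 405 higher (3.84%) of all genes. The median log2 fold change of the 47 was -0.03, beside -0.0044 over all genes, with 30 below 0 and 17 above. Knockout libraries were all below the controls for 6 of them (5.45% of all genes) and all above for 1 (5.73% of all genes).

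Of the NPY family and its receptors, Npy was the single member of 8 in the table, and Pyy, Ppy, Npy1r, Npy2r, Npy4r, Npy5r and Npy6r were not analysed here. Of 11 enzymes that mature or cleave neuropeptides, 6 were measured and none passed, with a median of -0.07. Carboxypeptidase E (Cpe), which trims basic residues from peptide precursors, had the largest difference, with 4.71, 5.66 and 6.96 CPM in the controls and 2.68, 4.49 and 4.05 CPM in the knockouts (log2 fold change -0.62, SE 0.24, adjusted p = 0.669). Its groups did not overlap, though control library 1 and knockout library 2 were close. Pam, the enzyme that amidates the end of the peptide, was at -0.14 (adjusted p = 0.863), and Furin, a precursor-cleaving protease, at 0.14 (adjusted p = 0.869).

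Of 13 CADM and nectin adhesion proteins and their receptors, 5 were measured, Cadm1 included, and Cadm2, Cadm3, Cadm4 and Crtam were not analysed here. On the log2 scale, nectin-4 (Pvrl4 in the table) differed by -0.32 (adjusted p = 0.861), nectin-2 (Pvrl2) by -0.06 (adjusted p = 0.983) and the poliovirus receptor Pvr by 0.03 (adjusted p = 0.991). Cd226, a receptor for the last of these, was near the floor of the table, 1 CPM, with means of 1.90 and 2.76 CPM. Of 13 cytoplasmic partners and sheddases of CADM1, 11 were measured and none passed. Epb4.1l3, which encodes the actin linker protein 4.1B that binds the cytoplasmic tail of CADM1, had the smallest p of all 47 genes and pointed the other way. It was at 2.07, 1.86 and 1.65 CPM in the controls and at 3.09, 3.87 and 4.05 CPM in the knockouts (log2 fold change 0.97, SE 0.27, adjusted p = 0.366). Every knockout library was higher, at a level where single reads weigh more than for Cadm1. Its relative Epb4.1l2 was at -0.19 (adjusted p = 0.749), and the sheddase gene Adam10 at 0.15 (adjusted p = 0.865).

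Kcnn4 was the single measured member of 9 genes of calcium-activated potassium channels, and Kcnn1, Kcnn2, Kcnn3 and Kcnma1 were not analysed here. Of 8 genes for calmodulin and regulators of KCa3.1, 7 were measured and none passed. Calm2 and Calm3 were at -0.08 and -0.18 (adjusted p = 0.935 and 0.837). All 14 calcium entry and release genes were measured, with a median of -0.03 and none that passed. The smallest p was that of the IP3 receptor gene Itpr3, at 46.0, 38.5 and 38.2 CPM in the controls and 34.5, 33.2 and 34.1 CPM in the knockouts (log2 fold change -0.27, SE 0.10, adjusted p = 0.672). The store-operated channel gene Orai2 was at -0.18 (adjusted p = 0.807) and Trpv4, a mechanically and osmotically sensitive channel near the floor of the table, at 0.80 (SE 0.42, adjusted p = 0.834). Of 9 other potassium channel genes 5 were measured. Kcnk13, a background channel of the tandem-pore family, had 6.64, 6.56 and 4.70 CPM in the controls and 3.92, 3.87 and 3.49 CPM in the knockouts (log2 fold change -0.67, SE 0.21, adjusted p = 0.495). The voltage-gated channel gene Kcna3 was at 0.14 (adjusted p = 0.955) and the auxiliary subunit gene Kcnab2 at -0.04 (adjusted p = 0.989).

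**Figure D4:**
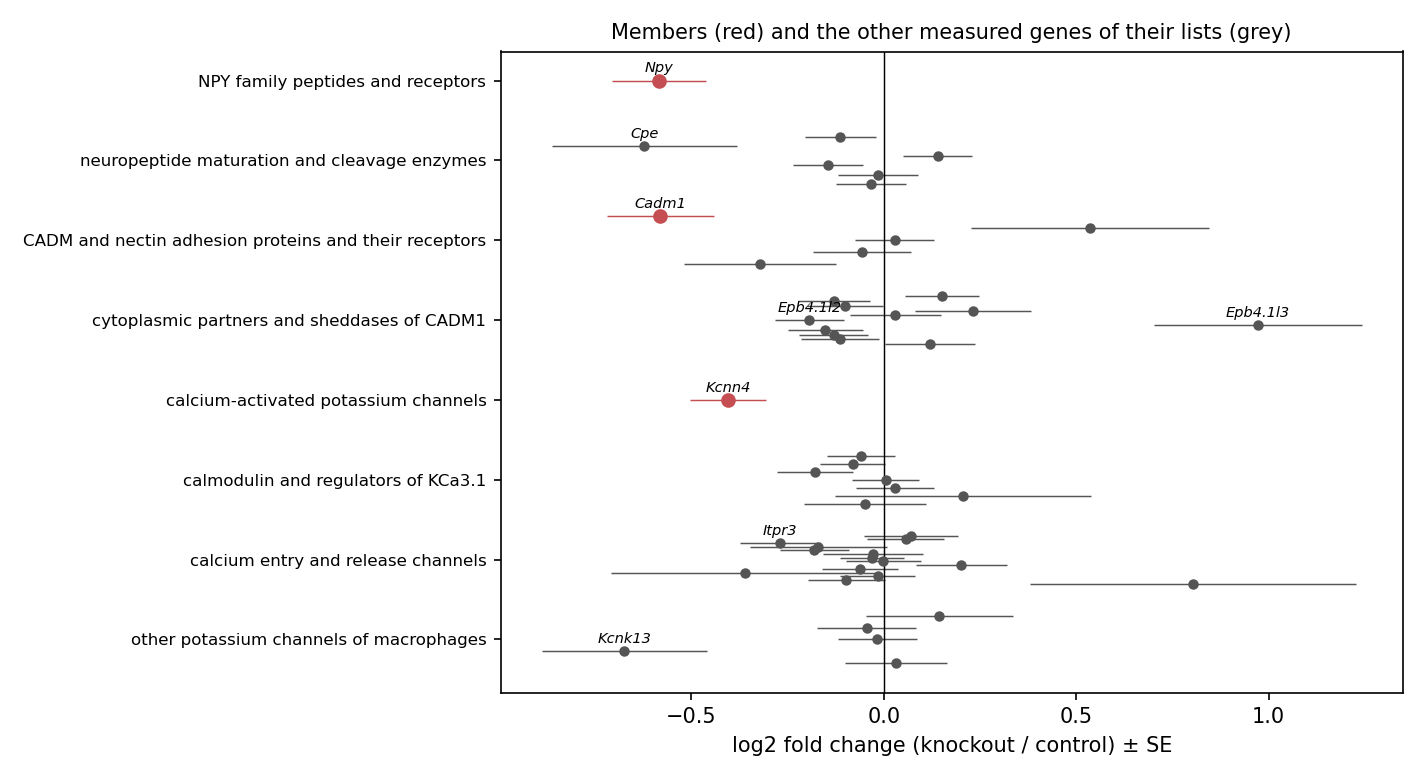
Log2 fold change of knockout over control (horizontal axis, ± SE) for Npy, Cadm1 and Kcnn4 (red) and the other measured genes of the 8 lists (grey, rows), with names where the unadjusted p was under 0.05. Epb4.1l3 lies farthest to the right at 0.97, and Kcnk13 and Cpe lie near Npy and Cadm1 with wider errors.

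None of the measured genes nearest to the 3 on their chromosomes passed the threshold. Next to Npy in the table are Ccdc126, 481148 bases away (log2 fold change 0.23, adjusted p = 0.915), and Mpp6, 280736 bases away (-0.11, adjusted p = 0.911), which is itself a scaffold gene of the CADM1 partner list. The neighbours of Cadm1, Bud13 and Rexo2, were at -0.05 and 0.12 (adjusted p = 0.992 and 0.935). Those of Kcnn4, Zfp61 and Smg9, the latter 14416 bases away, were at -0.08 and -0.08 (adjusted p = 0.991 and 0.968).

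The cells carried macrophage markers, with all 8 of the list measured and sums of 6335 to 6852 CPM in the controls and 5870 to 6876 CPM in the knockouts. None of the 8 passed, with 5 log2 fold changes below 0 and 3 above. For Fcgr1 (-0.33, adjusted p = 0.503) and Adgre1 (-0.18, adjusted p = 0.802) every knockout library was below every control (5.45% of all genes). Since Npy, Cadm1 and Kcnn4 are also known from other blood cells, markers of these were read beside them, and their part in the results was not tested. Megakaryocyte and platelet markers, 6 of 8 measured, summed to 1498 to 1797 CPM in the controls and 1269 to 1396 CPM in the knockouts, almost all of it Pf4. Pf4, platelet factor 4, lay at 1451, 1697 and 1403 CPM in the controls and 1166, 1270 and 1299 CPM in the knockouts (log2 fold change -0.29, adjusted p = 0.521), while the other 5 summed to 94.6 to 106 and 97.1 to 118 CPM, mostly Vwf (-0.12, adjusted p = 0.899). The remaining 4 had values in the opposite direction to Pf4 and Npy, with every knockout library above every control (5.73% of all genes). These were Ppbp at 0.77, Itga2b at 0.64, Tubb1 at 1.54 and Gp9 at 1.11 (adjusted p = 0.142, 0.366, 0.495 and 0.627). The median of the 6 was 0.70, and none passed. Of the dendritic cell markers, 6 of 9 measured, the sums were 397 to 526 and 496 to 511 CPM. Xcr1 and Flt3 were not analysed here, Clec9a was at 1.08 and 1.22 CPM, and Batf3, a factor that such cells need, was at 33.1 and 27.3 CPM (-0.28, adjusted p = 0.673). Itgax, an integrin gene that macrophages also express, was at 0.29 (adjusted p = 0.627). Zbtb46, a factor of conventional dendritic cells, was at 0.57 (adjusted p = 0.673), and the median of the 6 was 0.11. Wdfy4 and Tlr3 were at -0.09 and 0.008 (adjusted p = 0.940 and 0.999). Every knockout library was below every control for Batf3 (5.45% of all genes) and above every control for Itgax (5.73% of all genes). Mast cell and basophil markers, 5 of 10 measured, had sums of 14.3 to 18.5 and 18.8 to 27.2 CPM, a median of 0.31 and none that passed. Most of the sum was Hdc (0.31, adjusted p = 0.826). Kit was at 0.11 (adjusted p = 0.991), with means of 1.38 CPM in controls and 1.54 CPM in knockouts. Cpa3 was at -0.11 (adjusted p = 0.991), with means of 1.05 and 0.984 CPM. The basophil protease genes Mcpt8 and Prss34 lay at 2.00 and 1.70 (adjusted p = 0.110 and 0.132), with means of 0.471 and 0.698 CPM in controls and of 1.88 and 2.30 CPM in knockouts. For both, every knockout library was above every control (5.73% of all genes). The control means of Tubb1, Gp9, Mcpt8 and Prss34 were under the floor of the table, 1 CPM, so that their rows depend on the knockout libraries and a higher level there is favoured. Of the T and NK cell markers only Lck was measured of 8 (33.4 to 43.3 and 31.7 to 40.6 CPM), and of the sympathetic neuron and Schwann cell markers only Tubb3, at 1.15 and 1.43 CPM. Of 7 erythroid markers 0 were measured. The 10 neutrophil markers, all measured, summed to 368 to 489 CPM in the controls and 684 to 861 CPM in the knockouts. All 10 had log2 fold changes above 0, as did 5143 of the 10551 genes, and 5 passed as higher (0.0948% of all genes). For 8 of them every knockout library was above every control (5.73% of all genes).

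The genes with the most similar pattern over the 6 libraries were found among 8425 named genes with an average of at least 2 log2 CPM, by Pearson's r of log2 CPM. For Npy they were Pofut1 (r = 0.983), Glod4 (0.974), Hdgfrp2 (0.973), Dnaja3 (0.972) and Pf4 (0.972). For Cadm1 they were Rgmb, a co-receptor of bone morphogenetic proteins (0.996), the scavenger receptor gene Stab1 (0.994), Nagk (0.991), Alg6 (0.983) and Dip2c (0.979). Stab1 was, like Cadm1, highest of its group in knockout library 2, with 255, 329 and 255 CPM in the knockouts 1 to 3 against 322, 372 and 357 CPM in the controls. For Kcnn4 they were Dnajc4 (0.999), Ikbkg, which encodes the regulatory subunit NEMO of the IkB kinase (0.987), Mrpl34 (0.984), Stard3 (0.983) and Pola2 (0.980). None of these 15 genes passed the threshold in edgeR's test. Their log2 fold changes lay between -0.35 for Dnajc4 and -0.10 for Dip2c, all nearer to 0 than that of the gene they resemble. Since they were picked by likeness to genes chosen for this difference, nothing is read from the direction or size of these values. With 17, 21 and 23 genes above an r of 0.95 and libraries that share depth and scaling, the values of r describe these 6 libraries only.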

How the data were processed

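RNA of 6 libraries, 3 per group, was sequenced on Ion Proton, per the labels' protocols. The table deposited by the authors gives raw read counts per gene, not normalized, with exon coordinates and an exon length in bases. Of tools, the submitters' processing notes list STAR (2.4.2a), Subread (1.5.0), featureCounts and edgeR, and the build mm10, with no role or order. Annotation and strand use are not given in the sources used here. In all 10551 genes the third highest library exceeded 1 CPM, so the deposited counts look filtered at that floor.

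Library sizes were adjusted with TMM factors, and genotype was tested by edgeR 4.0.16 (R 4.3.3), quasi-likelihood, two-sided, with no other term. A minimum count of 10 in filterByExpr took out 0 genes. P-values were Benjamini-Hochberg adjusted over all genes. SE is the log2 fold change divided by the square root of F, and intervals are at 95%. The fit was tested on simulated data. Tried beside it were RLE size factors, library totals alone, no filter, a stricter filter (1 CPM in every library of a group), a block by replicate number, leaving out each library, DESeq2 1.42.0, limma-voom (limma 3.58.1) and leaving out Lyz2. Totals per library, 11648710 to 16224818 counts, limit genes near the floor most.

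The 3 genes and all lists were chosen with earlier results of these data known. Named were these genes, Dhps, the up to 3 genes of each list around them with the smallest p, measured family members, the nearest measured gene on each side, the 5 most similar genes each, up to 3 genes next in the order of p, and markers of other cell types that are read beside the results. 1 gene that this rule takes is not reported here.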

Additional observations from a re-analysis of the deposited data

How the results depend on the processing

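All 14 alternatives kept the log2 fold changes of Npy, Cadm1 and Kcnn4 below 0, which groups without overlap made nearly certain. Among them, the fit with no filter repeated the main fit, since the filter took out 0 genes. The 8 alternatives that used every library gave log2 fold changes of -0.59 to -0.56 for Npy, -0.61 to -0.56 for Cadm1 and -0.41 to -0.38 for Kcnn4. With 1 library left out, which also lowers the number of samples, they ranged from -0.68 to -0.47, from -0.79 to -0.47 and from -0.46 to -0.31. DESeq2 moved Npy past the threshold (-0.58, adjusted p = 0.015), as the quasi-likelihood test did for Cadm1 without knockout library 2, and the cause was not tested. With the replicate number as a block, Npy (-0.59, adjusted p = 0.010) and Cadm1 (-0.59, adjusted p = 0.011) passed and Kcnn4 (-0.41, adjusted p = 0.072) did not. The block called 35 genes in place of 11, of which 9 were lower. Same-numbered libraries deviated together with r of 0.14, 0.02 and 0.15 over genes for numbers 1 to 3. Unlike-numbered libraries had r of -0.18 to 0.05. Numbers 1 and 3 thus had the highest values, while control library 2 correlated more with knockout library 1 (0.03). Whether the numbers mark pairs cannot be told from this, and the main fit used no block. The number of genes called was 22 with DESeq2, 7 with Lyz2 left out of the counts, and 4 (without control library 2) to 19 (without control library 1) with 1 library left out, and the cause was not tested.

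Which of depth and the number of libraries limits the precision of the 3 genes more was not tested. Counts are lowest, and counting error largest, for the genes near 1 CPM such as Trpv4 and Clec9a.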
